A study of Mus musculus with 12 samples.

Results

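Transcripts of 48 cell cycle and DNA replication genes were examined in sorted regulatory T cells (Tregs). The 48 are all members of a list of symbols, 27 of mitosis and 21 of DNA synthesis (S phase), out of 26609 rows in the deposited count table. Each was found in both deposited tables, had at least 13 counts in every library and passed the filter on low counts. With edgeR's quasi-likelihood test no member passed in any of the 6 comparisons of the design, though other tools, other filters and reduced sets of libraries called up to 5. The results below therefore describe levels, the spread between libraries and differences that did not reach an adjusted p of 0.05.

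Genes of the cell cycle are transcribed in waves. Before S phase, transcription factors of the E2F family drive the genes of replication origins, DNA polymerases and nucleotide supply, and cyclin E with its kinase releases E2F from the retinoblastoma protein. Later, a complex built on B-MYB, followed by FOXM1, drives the mitotic genes through a promoter element named the cell cycle genes homology region (CHR), often beside CCAAT boxes bound by NF-Y. In resting cells the DREAM complex holds both sets down. Most lymph node T cells are resting, and activated Tregs are among the T cells that divide most in the living animal.

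Tregs were sorted as single CD4+CD25hiCD127lo cells from mesenteric lymph nodes, which drain the gut, of untreated SAMP mice, a line prone to spontaneous inflammation of the ileum. The groups were male and female SAMP/YitFC-WT mice and male and female SAMP/YitFC-ERb-KO mice, with 3 libraries in each of 4 groups. The titles of WT males 2 and 3 carry the same number, so whether these are separate mice is not known, and each is counted in n = 3. ERb is the estrogen receptor encoded by Esr2. The design text names its loss as global, so it was not limited to Tregs, and the age of the mice and the number of mice behind each library are not stated. Since the labels do not state that the replicates are separate mice, p-values measure the spread between these samples only, which may be technical. The question is what loss of the receptor changes in Tregs of either sex.

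Total counts ranged from 10.2 to 16.7 M over the 12 libraries. The labels did not hold throughout. Esr2 was at or under 0.895 CPM (counts per M of the scaled library total) in 6 libraries and at 8.05 to 12.3 CPM in the other 6, and the low range held 4 WT-labelled libraries (WT males 1 to 3 and WT female 1) and KO males 1 and 2, and the high range held 4 KO-labelled libraries (KO male 3 and KO females 1 to 3) and WT females 2 and 3. Most KO-labelled libraries thus had the higher Esr2 counts. Which exons were deleted is not stated, and counts can include a disrupted transcript. That concerns KO-labelled libraries only, and the low Esr2 counts of the 4 WT-labelled libraries were not explained. Xist and Y-linked counts were opposite to the titled sex in KO males 1 and 2, in KO female 1 and in WT female 2. All group names below are those of the titles, every direction rests on them, and the class medians of each comparison are also given without those 4 libraries. That reduced set does not check the genotype labels. Its KO libraries had Esr2 at 8.05 to 11.7 CPM, while WT males 1 to 3 and WT female 1 were at or under 0.895 and WT female 3 at 12.3. Foxp3, which defines the Treg lineage, was at 583 to 926 CPM in every library, and all 10 genes of the Treg list were detected throughout. Markers of other cells were present too, and no listed marker that the table holds was at 0 in all libraries. The 10 B-cell markers summed to 39.9 to 68.1 CPM in WT males, 63.3 to 227 in WT females, 176 to 334 in KO males and 185 to 406 in KO females. The 12 markers of myeloid and dendritic cells summed to 25.9 to 53.9, 47.3 to 308, 131 to 343 and 179 to 362 CPM in the same order.

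Promoters are shown first because the shares with a CHR or an E2F motif differ between the classes, though neither motif separates all members. RefSeq promoter windows (GRCm38.p6, 250 bases before to 50 after a start) were matched for 41 of the 48 members, and Tpx2, Aurkb, Ccna2, Mcm4, Gins2, Pole and Ccne2 had no match. The CHR was searched as TTTGAA or TTCGAA, the NF-Y motif as CCAAT and the E2F motif as TTCCCGC or its variants, of which one is TTCGCGC, another is TTGCCGC and the last is TTGGCGC, all on both strands and with overlaps between motifs allowed. A CHR was found in 21 of 26 mitotic windows (80.8%), in 3 of 19 S phase windows (15.8%) and in 19.2% of all 32851 windows. An E2F motif was found in 7 of 26 mitotic windows (26.9%), 12 of 19 S phase windows (63.2%) and 9.57% of all windows. CCAAT was frequent in both classes, at 76.9% and 68.4% against 37.4% of all windows. CHR and CCAAT stood together in 69.2% of mitotic, 15.8% of S phase and 7.52% of all windows. Of 32 CHR matches in mitotic windows, 65.6% lay within 50 bases of the start, against 25.2% of 7260 matches in all windows. Ect2 and Prc1 each had 2 overlapping windows, so letters these share were counted in both. By gene, a CHR was found for 19 of 24 mitotic members, 3 of 17 S phase members and 5854 of all 27025 genes. Bases after the start matched a GENCODE transcript of the gene in the same orientation for 35 of 45 member windows. A motif match is a description of these letters, not a bound site.

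**Figure D1:**
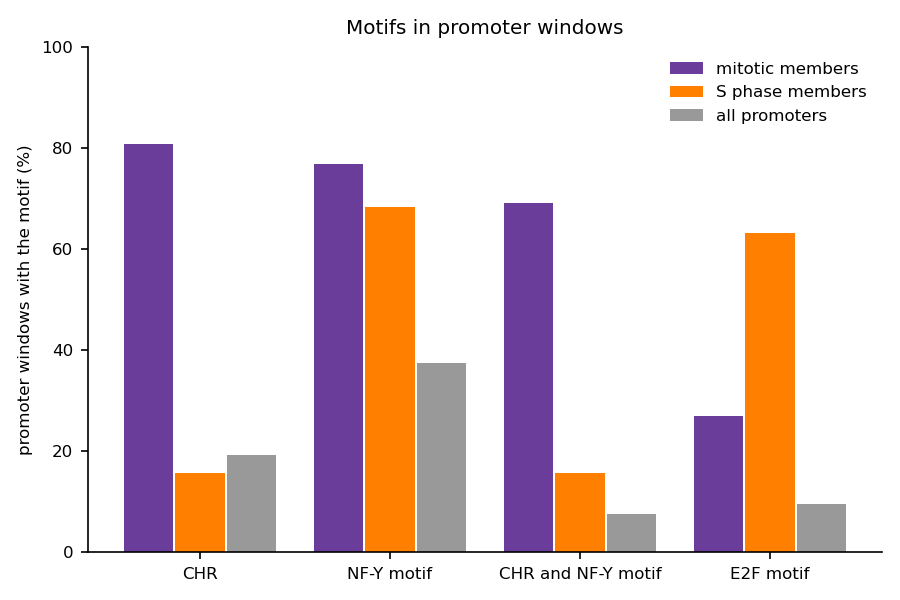
Share of promoter windows (y axis, percent) that hold each motif (x axis), for 26 windows of mitotic members, 19 windows of S phase members and all 32851 windows. The CHR bar is high for mitotic members alone (80.8%), and the E2F bar is higher for S phase members (63.2%) than for mitotic members (26.9%).

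The 3 mitotic promoters below belong to the mitotic members with the highest level per kilobase whose window held both mitotic motifs, and they show how CHR and CCAAT stand side by side. Cdc20 activates the anaphase-promoting complex (chr4:118437314-118437493), Ccnb2 encodes cyclin B2 (chr9:70421525-70421704) and Top2a encodes topoisomerase II alpha, which untangles chromosomes (chr11:99024160-99024339). All are on the minus strand and run from 150 bases before to 30 after the start, with CHR and CCAAT on either strand in capitals.
Cdc20: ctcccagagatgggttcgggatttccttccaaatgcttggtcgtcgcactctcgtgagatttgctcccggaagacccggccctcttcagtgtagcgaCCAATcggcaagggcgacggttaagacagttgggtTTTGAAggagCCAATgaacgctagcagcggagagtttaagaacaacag
Ccnb2: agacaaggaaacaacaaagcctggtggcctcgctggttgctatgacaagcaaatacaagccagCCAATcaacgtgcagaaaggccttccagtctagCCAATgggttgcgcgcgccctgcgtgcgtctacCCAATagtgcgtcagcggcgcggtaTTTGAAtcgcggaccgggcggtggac
Top2a: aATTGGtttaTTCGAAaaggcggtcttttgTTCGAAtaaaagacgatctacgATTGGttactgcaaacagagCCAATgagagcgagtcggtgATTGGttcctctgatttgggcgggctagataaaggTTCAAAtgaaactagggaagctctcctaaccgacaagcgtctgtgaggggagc

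The 3 S phase promoters belong to the S phase members with the highest level per kilobase whose window held an E2F motif. All encode subunits of the MCM helicase, which unwinds DNA at the fork, with the E2F motif in capitals over the same span. They are Mcm6 (chr1:128359676-128359855), Mcm7 (chr5:138171237-138171416) and Mcm3 (chr1:20820283-20820462), all on the minus strand. Pcna and Mcm2 ranked above Mcm7 and Mcm3 per kilobase, but their windows held no E2F motif, and Mcm4 had no window. The Mcm7 stretch lies inside the span of the gene (chr5:138164583-138172422). Another Mcm7 window, not shown, lies further upstream but also inside that span, and held 3 E2F matches and 1 CHR.
Mcm6: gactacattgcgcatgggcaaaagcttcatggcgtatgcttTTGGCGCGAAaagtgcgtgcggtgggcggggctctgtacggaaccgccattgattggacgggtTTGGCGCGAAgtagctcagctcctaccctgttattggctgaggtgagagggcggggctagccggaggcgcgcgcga
Mcm7: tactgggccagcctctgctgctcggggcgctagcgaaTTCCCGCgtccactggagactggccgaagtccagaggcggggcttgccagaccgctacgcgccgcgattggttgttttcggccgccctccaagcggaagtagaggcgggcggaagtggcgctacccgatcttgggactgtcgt
Mcm3: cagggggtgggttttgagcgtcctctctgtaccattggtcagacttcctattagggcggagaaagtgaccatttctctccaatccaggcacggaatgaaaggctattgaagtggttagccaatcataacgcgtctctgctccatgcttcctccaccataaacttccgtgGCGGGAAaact

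The most abundant S phase genes stood far above every mitotic gene, while other S phase genes lay within the mitotic range. Per kilobase of exon, the mean level over the 12 libraries was highest for Pcna, the sliding clamp of DNA polymerases, at 88.7 CPM per kb. The MCM genes followed, from 36.7 CPM per kb for Mcm5 to 55.3 for Mcm4. The most abundant mitotic member per kb was Cdc20 at 13.1, and the least abundant of all 48 was Cenpf at 0.523. At the low end of the S phase class stood cyclin E2 (Ccne2) at 0.925 CPM per kb.

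Mitotic genes also varied more between libraries. The coefficient of variation over the 12 libraries ran from 20.9% for Ndc80 to 85.8% for Anln among mitotic genes, and from 13.3% for Cdt1 to 42.3% for Pole among S phase genes. The ratio of the highest to the lowest library reached 14.7 for Ube2c but only 1.54 for Pcna. Mean counts differ between the classes, and low counts carry more counting error. Ube2c had 13 counts in its lowest library and Pcna 1245.

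As per-library means of log2(CPM + 1), the 27 mitotic genes ranged from 2.71 to 3.99 with a median library of 3.40, and the 21 S phase genes from 5.03 to 5.69 with a median of 5.37. WT female 1 was highest in both classes and WT male 3 lowest in both. For mitotic genes the order from the top was WT female 1 (3.99), KO male 3 (3.85), WT female 2 (3.80), KO female 3 (3.65), KO male 2 (3.62), KO female 1 (3.43), WT male 2 (3.37), KO male 1 (3.33), KO female 2 (3.20), WT female 3 (3.10), WT male 1 (2.93) and WT male 3 (2.71). The pooled SD within groups was 0.34, so neighbours in that order did not differ beyond the spread. For S phase genes WT females 1 and 2 (5.69 and 5.63) and KO male 2 (5.62) were highest, followed by KO females 1, 3 and 2 (5.57, 5.54 and 5.39). KO male 3 (5.35), WT males 2 and 1 (5.26 and 5.23), KO male 1 (5.10), WT female 3 (5.08) and WT male 3 (5.03) came after, with a pooled SD of 0.23. In a bulk library, fewer dividing cells and less of these transcripts per cell cannot be told apart.

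**Figure D2:**
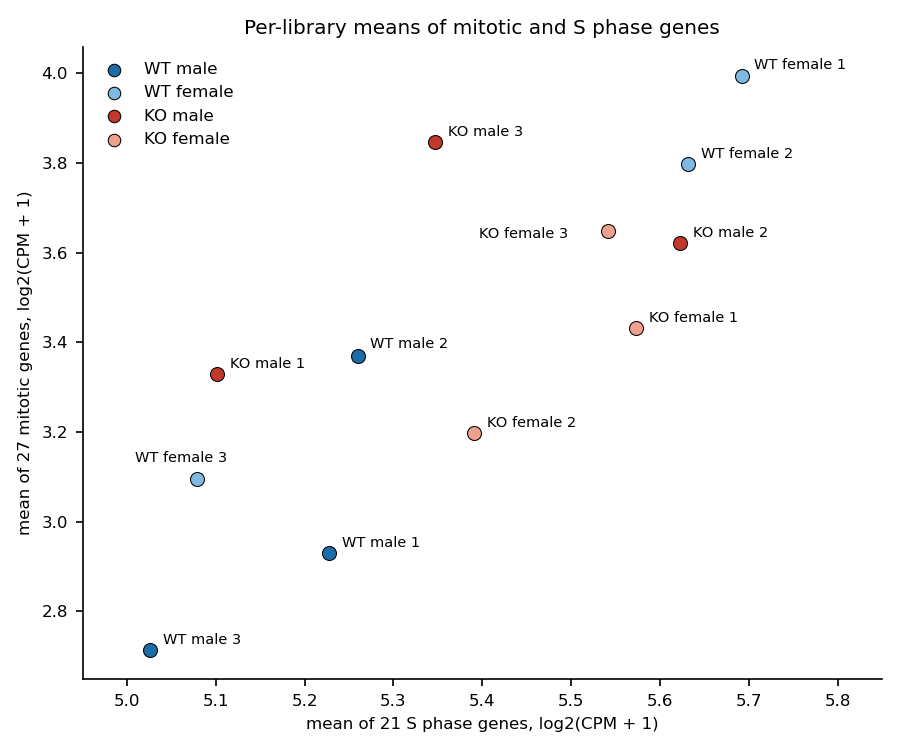
Mean log2(CPM + 1) of the 21 S phase genes (x axis) and of the 27 mitotic genes (y axis) in each of the 12 libraries, coloured by titled group. WT male 3 is lowest on both axes and WT female 1 highest, while KO male 3 stands high for mitotic genes (3.85) at a middling S phase mean (5.35).

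Group means of the mitotic class were 3.00 ± 0.33 in WT males, 3.63 ± 0.47 in WT females, 3.60 ± 0.26 in KO males and 3.43 ± 0.22 in KO females (SD, n = 3). The WT male libraries spanned 2.71 to 3.37 and overlapped each of the other groups. S phase means were 5.17 ± 0.13, 5.47 ± 0.34, 5.36 ± 0.26 and 5.50 ± 0.10 in the same order.

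The classes did not always move together within a library. KO male 3 had rank 2 of 12 for mitotic genes and rank 7 for S phase genes. It was the highest library for 9 of 27 mitotic members, among them Anln, Ect2, Cdk1 and Aurkb, and for 2 of 21 S phase members, while 18.8% of all tested genes were highest there. The germinal centre B-cell markers Gcet2 (9.03 CPM), Rgs13 (5.53 CPM), Mef2b (11.2 CPM), Mybl1 (1.75 CPM) and S1pr2 (57.1 CPM) were also highest in KO male 3. Bcl6 was highest in KO female 3 (31.4 CPM) and Fas in WT male 1 (84.8 CPM). The 7 germinal centre markers examined summed to 188 CPM there and to 118 to 149 in the other 11 libraries. Fas, S1pr2 and Bcl6 were at 12.9 CPM or more in every library and made up most of each sum. The part of germinal centre B cells in the mitotic levels of KO male 3 was not tested. KO male 1 was the lowest library for 7 of 21 S phase members, 5 of them MCM subunits, and for 1 of 27 mitotic members, while 14.7% of all genes were lowest there. WT male 3 was lowest for 9 mitotic members (6.54% of all genes) and WT male 1 for 6 (12.1% of all genes).

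**Figure D3:**
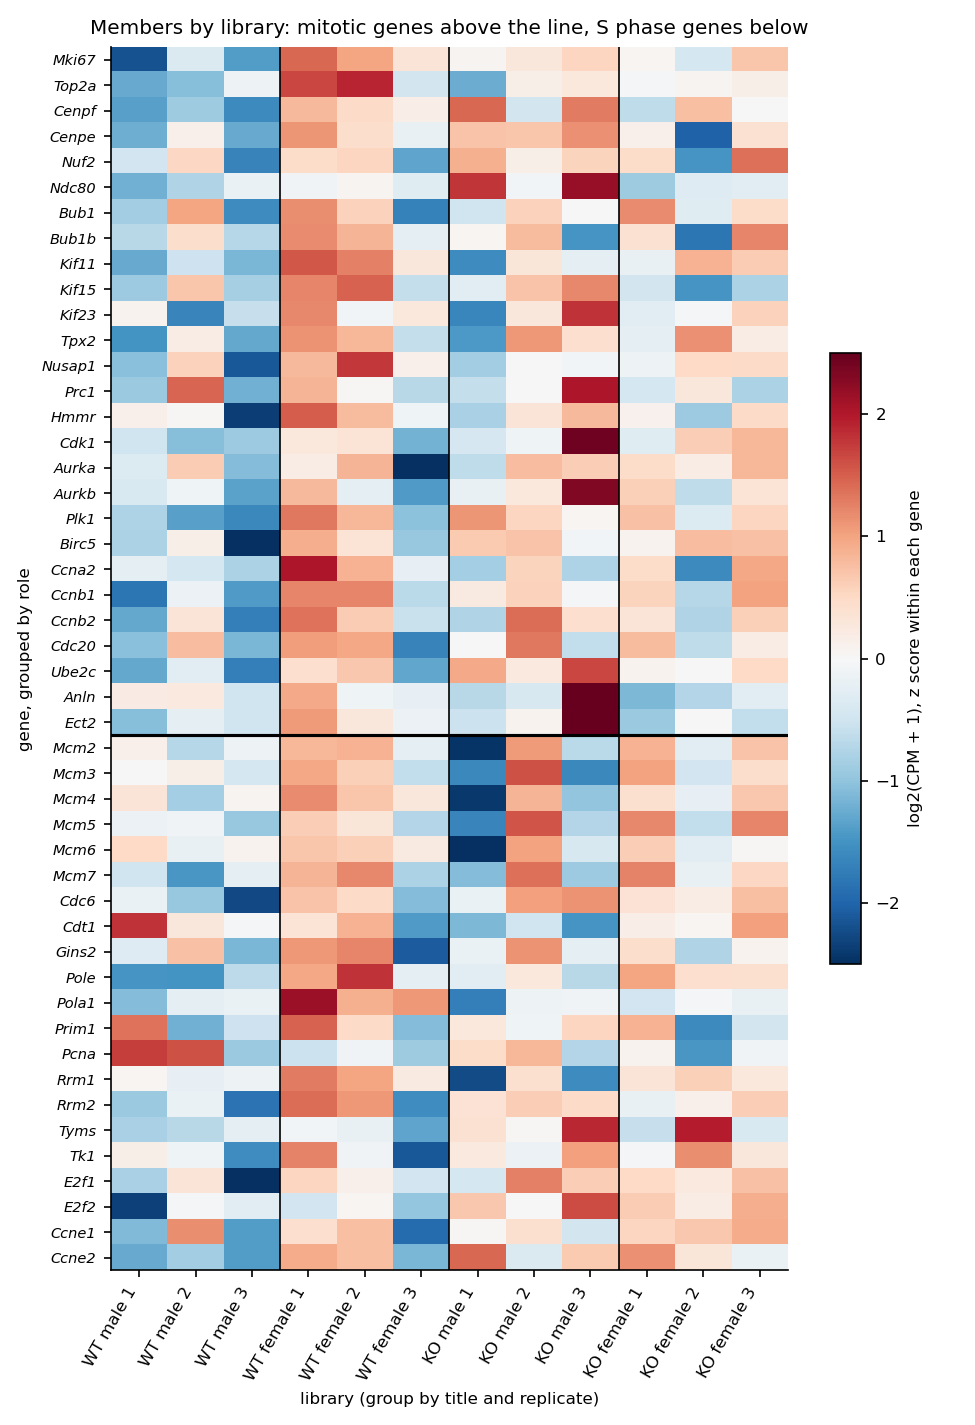
Level of each of the 48 members (rows, grouped by role) in each library (columns), as log2(CPM + 1) scaled to a z score within each gene, with mitotic genes above the horizontal line. WT males 1 and 3 are mostly blue among mitotic genes, WT females 1 and 2 mostly red, KO male 3 dark red for Cdk1, Aurkb, Anln and Ect2, and KO male 1 dark blue for MCM genes.

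Mki67 and Top2a mark dividing cells. Mki67 encodes the protein that coats mitotic chromosomes and is the standard mark of proliferation. It measured 17.1, 32.3 and 22.6 CPM in WT males 1 to 3, 59.9, 51.5 and 40.9 in WT females, 37.7, 40.5 and 43.97 in KO males and 37.4, 31.5 and 46.4 in KO females. WT males 1 and 3 were the lowest libraries, and KO female 2 was the only library outside the WT males that lay below WT male 2. Top2a measured 28.7, 30.6 and 41.99 CPM in WT males 1 to 3, 76.3, 82.8 and 37.5 in WT females, 28.9, 45.9 and 47.8 in KO males and 43.3, 44.7 and 45.96 in KO females. Its high values were those of WT females 1 and 2, and WT female 3 lay among the WT males.

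Kinetochore genes varied widely apart from Ndc80. Cenpf, a large protein of the outer kinetochore (chr1:189640606-189688086), measured 1.64, 2.48 and 1.28 CPM in WT males 1 to 3, 8.49, 6.74 and 5.496 in WT females, 12.7, 3.46 and 11.6 in KO males and 3.04, 8.14 and 4.83 in KO females. All WT male libraries lay below every other library, and KO male 2 and KO female 1 were the next lowest. Ndc80, the microtubule anchor, was steadier, at 12.5, 13.7 and 15.2 CPM in WT males 1 to 3, 15.4, 15.9 and 14.9 in WT females, 21.9, 15.5 and 23.6 in KO males and 13.3, 14.8 and 14.96 in KO females. KO males 1 and 3 stood above all other libraries. Cenpe and Nuf2 spanned 2.48 to 19.6 and 1.66 to 8.66 CPM.

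The spindle checkpoint kinases Bub1 and Bub1b hold anaphase until chromosomes are attached. Bub1 measured 2.93, 8.76 and 1.79 CPM in WT males 1 to 3, 9.63, 7.01 and 1.63 in WT females, 3.72, 6.99 and 5.05 in KO males and 9.72, 4.196 and 6.57 in KO females. Bub1b measured 5.68, 11.6 and 5.56 CPM in WT males 1 to 3, 18.1, 14.8 and 7.59 in WT females, 9.13, 14.4 and 3.3003 in KO males and 11.1, 2.57 and 18.6 in KO females. The groups overlapped for both genes.

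Motor and spindle proteins build the mitotic spindle. Kif11, the kinesin that pushes the poles apart, measured 6.09, 8.69 and 6.46 CPM in WT males 1 to 3, 22.7, 19.9 and 12.8 in WT females, 5.17, 12.8 and 9.998 in KO males and 10.3, 16.7 and 14.96 in KO females. The WT females were above the WT males without overlap, while KO male 1 was the lowest library. Kif15, which works beside it, measured 3.86, 7.998 and 4.03 CPM in WT males 1 to 3, 10.03, 11.1 and 4.49 in WT females, 5.25, 8.07 and 9.901 in KO males and 4.79, 2.91 and 4.104 in KO females. Prc1, which bundles the microtubules of the central spindle, measured 12.997, 21.9 and 12.3 CPM in WT males 1 to 3, 19.1, 16.1 and 13.7 in WT females, 13.98, 15.9 and 24.7 in KO males and 14.5, 16.96 and 13.4 in KO females. Tpx2, which activates Aurora A, measured 7.03, 13.03 and 7.61 CPM in WT males 1 to 3, 18.2, 16.4 and 9.83 in WT females, 7.19, 17.9 and 14.2 in KO males and 11.2, 18.3 and 13.04 in KO females. For Prc1 and Tpx2 all 4 groups overlapped. Kif23, Nusap1 and Hmmr had ranges of 4.96 to 22.03, 2.43 to 12.7 and 1.21 to 13.1 CPM.

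Among mitotic kinases and the passenger complex, Cdk1, the master kinase of mitotic entry, measured 6.32, 5.102 and 5.43 CPM in WT males 1 to 3, 8.42, 8.66 and 4.88 in WT females, 6.54, 7.35 and 17.96 in KO males and 6.82, 9.51 and 10.3 in KO females. KO male 3 stood far above the rest. Birc5, which encodes survivin, measured 8.37, 11.998 and 4.09 CPM in WT males 1 to 3, 16.05, 12.96 and 7.896 in WT females, 14.5, 14.8 and 11.1 in KO males and 11.7, 15.2 and 15.05 in KO females. WT male 3 was lowest for Birc5. Aurka, Aurkb and Plk1, kinases of spindle assembly and chromosome segregation, spanned 3.41 to 10.6, 5.496 to 20.9 and 3.96 to 12.3 CPM.

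Cyclins A and B carry cells through G2 into mitosis. Ccnb1 (cyclin B1) measured 5.39, 10.8 and 6.39 CPM in WT males 1 to 3, 18.7, 18.8 and 8.75 in WT females, 12.6, 14.5 and 11.4 in KO males and 14.4, 8.65 and 17.2 in KO females. Ccnb2 measured 10.3, 16.6 and 9.01 CPM in WT males 1 to 3, 22.5, 18.2 and 12.8 in WT females, 12.04, 22.8 and 17.1 in KO males and 16.6, 12.1 and 17.97 in KO females. WT females 1 and 2 were above all WT males for both, and WT female 3 lay among the WT males. Ccna2 (cyclin A2) spanned 4.54 to 22.5 CPM.

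Of the anaphase-promoting complex, Cdc20 measured 18.3, 27.2 and 17.96 CPM in WT males 1 to 3, 28.9, 28.3 and 15.9 in WT females, 23.03, 30.5 and 20.1 in KO males and 27.3, 20.04 and 23.98 in KO females. All groups overlapped. Ube2c, the ubiquitin-conjugating enzyme of the same complex (chr2:164769898-164778822), measured 1.35, 3.24 and 0.831 CPM in WT males 1 to 3, 5.35, 6.35 and 1.32 in WT females, 7.68, 4.76 and 12.2 in KO males and 4.25, 4.02 and 5.65 in KO females. The KO males lay above the WT males without overlap, and WT female 3 lay within the range of the WT males.

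Cytokinesis was represented by Ect2, the exchange factor that sets up the contractile ring, and Anln (anillin), which scaffolds it. Ect2 measured 5.74, 8.48 and 7.54 CPM in WT males 1 to 3, 15.2, 10.7 and 8.82 in WT females, 7.35, 9.87 and 29.4 in KO males and 6.14, 9.42 and 7.11 in KO females. Anln, named after its values were seen, was at 13.3 CPM in KO male 3 and at 1.48 to 5.42 in the other libraries. KO males 1 and 2 were at 7.35 and 9.87 CPM for Ect2 and at 2.02 and 2.45 for Anln.

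**Figure D4:**
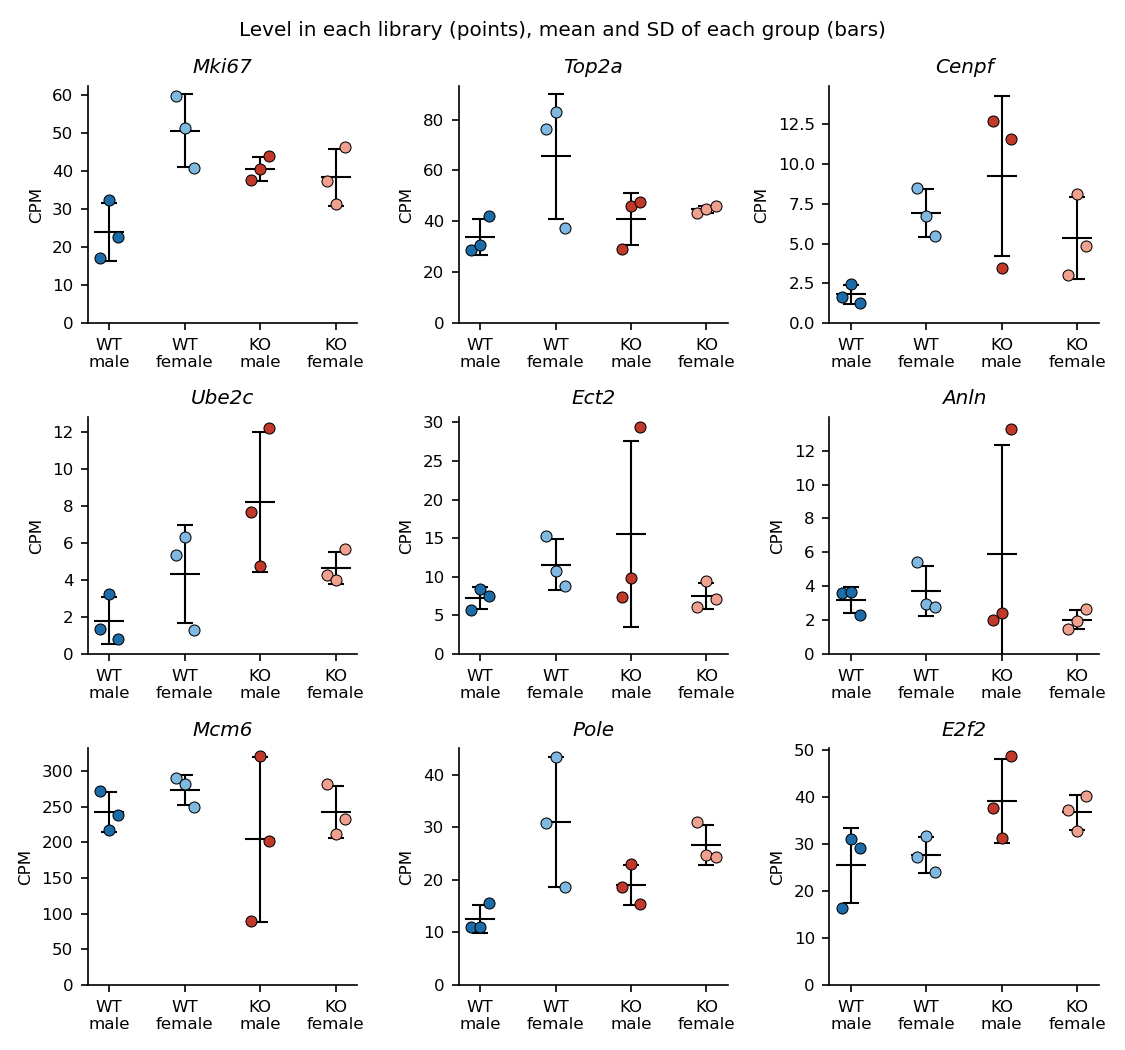
CPM (y axis) of 9 members in each library (points) by titled group (x axis), with the group mean (long bar) and SD (short bars, n = 3; the lower bar of Anln runs below the axis). WT males form the lowest group for Mki67 and Cenpf, while Ect2 and Anln each have a single high point, KO male 3 (29.4 and 13.3 CPM), and Mcm6 a single low one, KO male 1 (89.9 CPM).

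MCM subunits load onto origins before S phase. Mcm6, the most abundant member in CPM, measured 273, 217 and 238 CPM in WT males 1 to 3, 289.7, 281 and 249 in WT females, 89.9, 321 and 202 in KO males and 283, 211 and 233 in KO females. Mcm5 measured 116, 118 and 89.5 CPM in WT males 1 to 3, 148, 134 and 96.2 in WT females, 71.4, 199 and 95.8 in KO males and 178, 99.8 and 179 in KO females. KO male 2 was the highest library for 5 of the 6 subunits and KO male 1 the lowest for 5, and for Mcm2, Mcm3, Mcm5 and Mcm6 the KO males held both ends of the range. WT females overlapped WT males and KO females for every subunit. Mcm2, Mcm3, Mcm4 and Mcm7 spanned 80.1 to 235, 75.1 to 204, 116 to 250.5 and 99.6 to 171 CPM.

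Of the origin licensing genes, Cdt1, which brings the helicase to origins, measured 52.7, 43.1 and 41.2 CPM in WT males 1 to 3, 43.5, 46.6 and 34.3 in WT females, 35.7, 38.8 and 34.1 in KO males and 42.4, 41.8 and 47.5 in KO females. The KO males lay below the WT males without overlap. Cdc6, its partner, measured 10.6, 7.38 and 3.83 CPM in WT males 1 to 3, 15.7, 14.1 and 6.89 in WT females, 10.6, 18.01 and 18.7 in KO males and 13.4, 12.4 and 15.96 in KO females. WT male 3 was lowest. Gins2, part of the active helicase, spanned 5.03 to 12.96 CPM.

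Pcna and Pola1 represent the fork. Pcna measured 169, 166 and 118 CPM in WT males 1 to 3, 124, 132 and 118 in WT females, 142, 149 and 121 in KO males and 135, 109.6 and 132 in KO females. WT males 1 and 2 were its highest libraries, against the pattern of the mitotic genes. Pola1, the catalytic subunit of DNA polymerase alpha (chrX:93304767-93632155), measured 22.7, 28.1 and 28.7 CPM in WT males 1 to 3, 51.5, 37.5 and 39.6 in WT females, 19.3, 28.96 and 29.3 in KO males and 26.6, 29.8 and 28.5 in KO females. The WT females lay above each of the other groups without overlap. Pole, the catalytic subunit of polymerase epsilon, spanned 10.96 to 43.4 CPM, and Prim1, the primase, 17.7 to 32.5.

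Enzymes of nucleotide supply make the DNA precursors. Rrm1, the large subunit of ribonucleotide reductase, measured 114, 107 and 109 CPM in WT males 1 to 3, 156, 144 and 119 in WT females, 64.3, 124 and 75.9 in KO males and 122, 131 and 119.8 in KO females. KO males 1 and 3 were its 2 lowest libraries. Tyms, thymidylate synthase, measured 23.4, 23.99 and 26.6 CPM in WT males 1 to 3, 27.5, 26.8 and 20.9 in WT females, 30.4, 28.2 and 42.3 in KO males and 24.6, 43.1 and 25.7 in KO females. KO male 3 and KO female 2 were highest. Rrm2, the regulated subunit, spanned 23.3 to 69.9 CPM, and Tk1, thymidine kinase, 8.05 to 19.3.

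E2f2, an activator of the E2F family (chr4:136172394-136196057), measured 16.3, 31.03 and 29.02 CPM in WT males 1 to 3, 27.3, 31.6 and 23.9 in WT females, 37.6, 31.1 and 48.7 in KO males and 37.1, 32.8 and 40.1 in KO females. All KO libraries but KO male 2 lay above every WT library, and KO male 2 lay between WT male 2 and WT female 2. E2f1 spanned 3.196 to 16.4 CPM, and the cyclin E genes Ccne1 and Ccne2 9.13 to 20.9 and 1.598 to 4.69 CPM.

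Averaged over the sexes, KO minus WT separated neither class. The median log2 fold change was 0.22 for mitotic members, 0.09 for S phase members and 0.02 for all 13692 genes tested. With edgeR's quasi-likelihood test 0 of 48 members passed, where 206 of all genes did (1.5%). At an unadjusted p under 0.05 there were 7 members, against 15.9% of all genes, so the members' 14.6% was near the background. DESeq2, limma voom and limma trend called 0 members as well. For 0 of 48 members did the 6 KO and 6 WT libraries not overlap, against 2.4% of all genes. The smallest adjusted p was that of E2f2, whose log2 fold change was 0.52 (SE 0.17, adjusted p = 0.154). Cenpf had 0.99 (SE 0.35, adjusted p = 0.177), Ube2c 1.14 (SE 0.42, adjusted p = 0.189), Cdc6 0.65 (SE 0.27, adjusted p = 0.246), Cdk1 0.59 (SE 0.28, adjusted p = 0.311) and Tyms 0.38 (SE 0.17, adjusted p = 0.287). Pola1, with -0.32 (SE 0.15, adjusted p = 0.300), was the only negative one among the 7. Without KO male 2, Cenpf (1.18, adjusted p = 0.0414) and Rrm1 (-0.41, adjusted p = 0.0438) passed, with 3.79% of all genes. Without the 4 libraries opposite to their titled sex 0 passed, and the medians were 0.28 and -0.04. The mitotic median was 0.11 without WT female 3, and the S phase median was -0.04 without KO male 2.

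In males every mitotic member had a positive KO minus WT value, though none passed the test. All 27 log2 fold changes were positive, where 51.2% of all genes were, with a median of 0.56 against 0.01 for all genes. Here and below, the 27 values come from the same few libraries and are not independent of each other. Of the S phase genes 13 of 21 were positive, with a median of 0.17. No member passed with edgeR, where 10 of all genes did (0.073%), while DESeq2 called Cenpf and Ube2c (2.64% of all genes), limma voom and limma trend called 0, and edgeR with no filter on low counts called those and Cenpe (1.8%). At an unadjusted p under 0.05 there were 13 members (14.2% of all genes), all positive (7.92% of all genes in that direction). The 3 KO and 3 WT male libraries did not overlap for 13 members (14.4% of all genes), 12 with KO higher (6.95% of all genes) and Cdt1 with KO lower. The 12 were Mki67, Cenpf, Cenpe, Ndc80, Cdk1, Plk1, Ccnb1, Ube2c, Rrm2, Tyms, E2f2 and Ccne2.

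The log2 fold change in males was 2.35 (SE 0.52, adjusted p = 0.0805) for Cenpf and 2.18 (SE 0.61, adjusted p = 0.136) for Ube2c. For Mki67 it was 0.76 (SE 0.24, adjusted p = 0.173) and for Plk1 1.02 (SE 0.35, adjusted p = 0.215). Kinetochore members had a median of 1.03, the kinases and passenger complex 0.81 and spindle checkpoint genes 0.24. MCM subunits had a median of -0.05 and the E2F factors with cyclin E 0.71. Mitotic members with a CHR in their window had a median of 0.55 (19 genes) and those without 0.73 (5 genes), and S phase members with an E2F motif had 0.07 (11 genes) and those without 0.21 (6 genes).

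Single libraries moved these values. With limma voom the mitotic median in males was 0.30, without KO male 3 it was 0.34 and without WT male 2 it was 0.84. Without KO male 2, Cenpf, Ube2c and Rrm1 (-0.65, adjusted p = 0.0335) passed, with 5.13% of all genes. Without the 4 libraries opposite to their titled sex, which leaves KO male 3 as the only KO male, assumed to vary like the other groups, the mitotic median was 0.67, the S phase median -0.05, and Cenpf (2.65, adjusted p = 0.0485) and Ect2 (1.99, adjusted p = 0.0480) passed, with 0.894% of all genes. B-cell markers moved with the same contrast. All 10 had positive values (51.2% of all genes), with a median log2 fold change of 3.85, and 3 passed (0.073% of all genes). For 9 of 10 the WT and KO male libraries did not overlap (14.4% of all genes). The sums of the list did not overlap (39.9 to 68.1 CPM in WT and 176 to 334 in KO males), and Pax5 was at 0 in 3 libraries. The sums of the 12 myeloid and dendritic markers did not overlap either, and 0 of the 11 tested passed. Plasma cell marker sums ran from 523 to 612 CPM in WT males and from 615 to 769 in KO males. Of 7 tested, 4 had positive and 3 negative values, and 1 passed (2010001M09Rik, 6.01, adjusted p = 0.0477). Xbp1, the largest part of each sum, overlapped (356 to 429 CPM in WT and 360 to 419 in KO males). Igj was higher in KO males (63.98 to 238 against 0.767 to 12.96 CPM). Prdm1 was lower there (39.7 to 61.8 against 65.2 to 118 CPM), and passed averaged over the sexes (-0.78, adjusted p = 0.0424). Neutrophil marker sums ran from 0.414 to 1.81 and from 2.18 to 15.5 CPM, and 0 of 7 tested passed. The part of these cells in the mitotic difference was not tested.

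**Figure D5:**
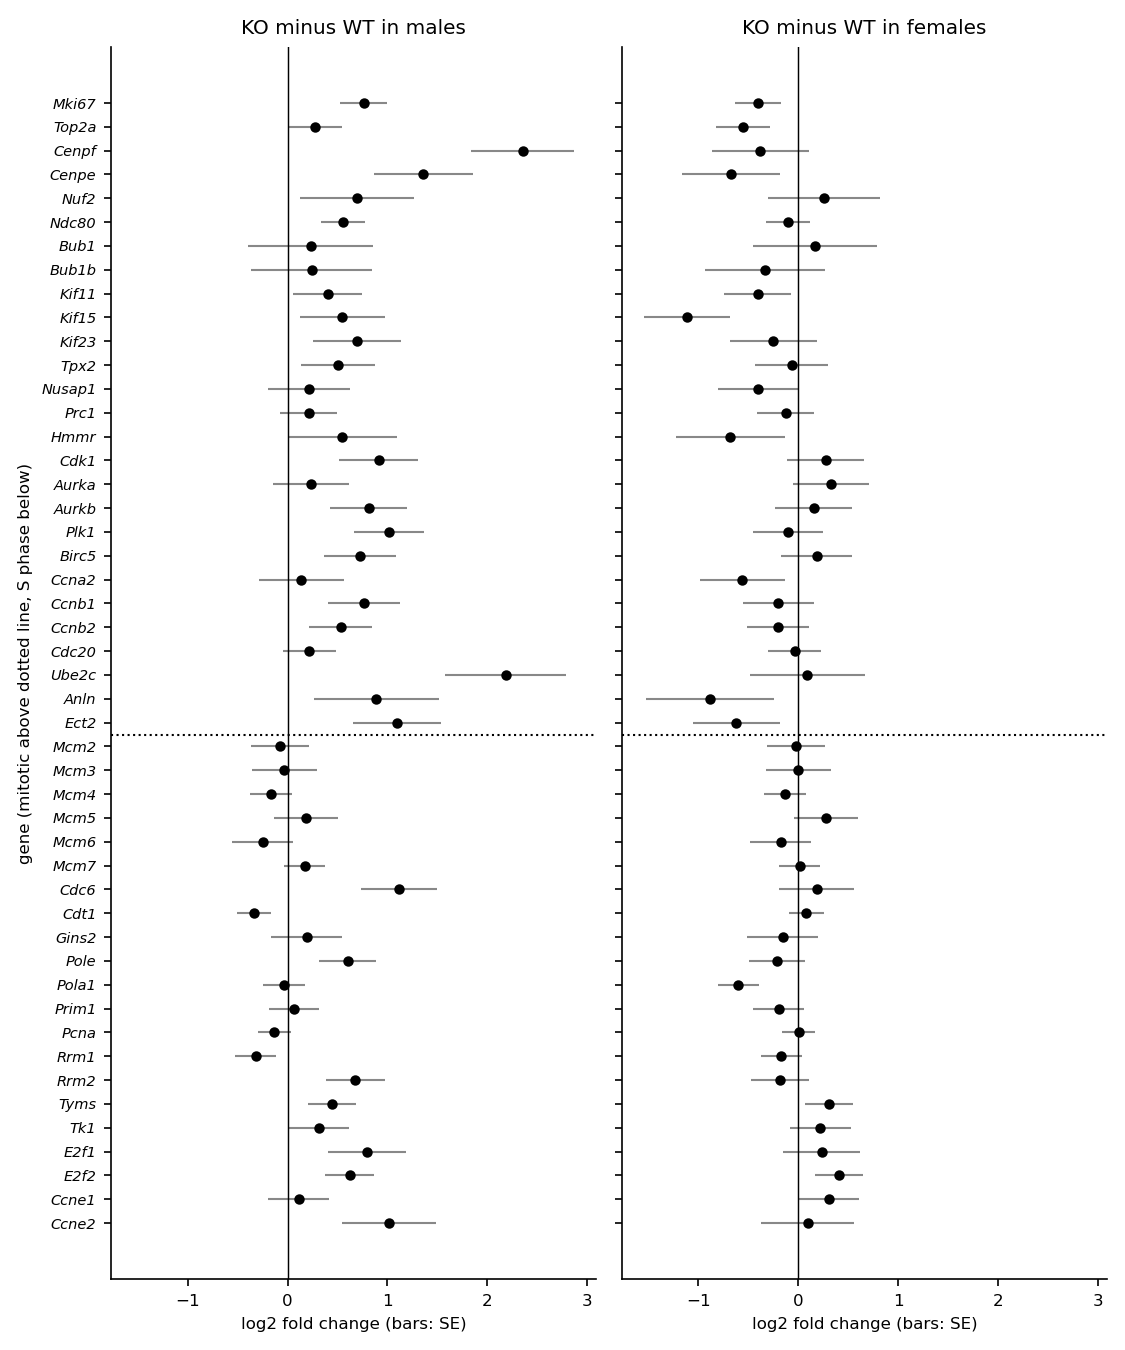
Log2 fold change of KO minus WT for each member (rows) in males (left) and females (right), with bars for the SE. In males all 27 mitotic genes lie right of 0 (median 0.56), in females 20 lie left of it (median -0.20), and no single value passed an adjusted p of 0.05.

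In females the mitotic median was -0.20 and the S phase median 0.01, against 0.01 for all genes. Of the mitotic genes 20 of 27 were negative. No member and no gene at all passed with edgeR (0%), while limma voom called Pola1 (-0.67, adjusted p = 0.00676), with 12.4% of all genes, and DESeq2 and limma trend called 0 members. At an unadjusted p under 0.05 there were 2 members (7.71% of all genes), Kif15 with -1.12 (SE 0.43, adjusted p = 0.568) and Pola1 with -0.60 (SE 0.21, adjusted p = 0.500). The groups did not overlap for 3 members (21% of all genes), with Pola1 and Anln lower and E2f2 higher in KO females. The mitotic median was -0.04 without WT female 1 and -0.39 without WT female 3. Without the 4 libraries opposite to their titled sex it was -0.12, and the S phase median was 0.01.

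Between the sexes in WT, mitotic genes were again positive nearly throughout. Female minus male had a positive log2 fold change for 26 of 27 mitotic and 19 of 21 S phase members, where 50.7% of all genes were positive, with medians of 0.69 and 0.22 against 0.01. This contrast uses the same WT male libraries as KO minus WT in males, so the resemblance between them is not independent. With edgeR 0 members and 0% of all genes passed. DESeq2 called Mki67, Cenpf, Kif11 and Pole (0.248% of all genes), limma voom called Mki67, Kif11, Pole and Pola1 (2.54%), and limma trend called 0. With no filter on low counts edgeR called Mki67, Top2a, Cenpf, Kif11 and Pole (0.777%). At an unadjusted p under 0.05 there were 12 members (6.52% of all genes), all higher in females (4.05% of all genes in that direction). The groups did not overlap for 8 members (15.7% of all genes), all higher in females (7.55% of all genes): Mki67, Cenpf, Kif11, Ccna2, Ect2, Pole, Pola1 and Rrm1.

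Mki67 had a log2 fold change of 1.08 (SE 0.24, adjusted p = 0.410) and Pole, named after its values were seen, 1.31 (SE 0.29, adjusted p = 0.410). Kif11 had 1.38 (SE 0.35, adjusted p = 0.546) and Cenpf 1.94 (SE 0.51, adjusted p = 0.694). Pcna, Cdt1 and Aurka were the 3 members with negative values (-0.27, -0.14 and -0.01). WT female 3 differed from WT females 1 and 2 by a mitotic mean of 3.10 against 3.99 and 3.80. Its B-cell markers summed to 63.3 CPM against 227 and 132, and its myeloid and dendritic markers to 47.3 against 308 and 287. The part of those cells was not tested. Without WT female 3, Top2a (1.23, adjusted p = 0.0459) and Pole (1.56, adjusted p = 0.0288) passed, with 0.265% of all genes. Without the 4 libraries opposite to their titled sex the medians were 0.69 and 0.19 and 0 members passed.

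Between the sexes in KO, members were mixed. The mitotic median was -0.13, the S phase median 0.13 and that of all genes -0.0049. With edgeR 0 members and 0% of all genes passed, and DESeq2, limma voom and limma trend called 0 members. At an unadjusted p under 0.05 there were 5 members (5.27% of all genes): Anln with -1.54 (SE 0.65, adjusted p = 0.849), Ect2 with -1.04 (SE 0.44, adjusted p = 0.849), Kif15 with -0.97 and Ndc80 with -0.50 were lower in females, and Rrm1 with 0.49 (SE 0.21, adjusted p = 0.849) higher. The groups did not overlap for 6 members (7% of all genes). All 6 MCM subunits had positive values, with a median of 0.27, in a group where KO male 1 was the lowest library for 5 of them. Without KO male 2, Rrm1 passed (0.83, adjusted p = 0.0209), with 2.26% of all genes. Without the 4 libraries opposite to their titled sex 0 members passed, and the medians were -0.15 and 0.02. The S phase median was 0.00071 without KO male 1, and the mitotic median was -0.0042 without KO female 2.

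The interaction tests whether the genotype difference depends on the titled sex, as the female difference less the male one. It was negative for 26 of 27 mitotic members, with a median of -0.73, and for 12 of 21 S phase members, with a median of -0.14, against -0.01 for all genes. With edgeR 0 members and 0% of all genes passed, and DESeq2, limma voom and limma trend called 0 members. With no filter on low counts edgeR called Cenpf and Cenpe (0.431% of all genes). At an unadjusted p under 0.05 there were 9 members (4.81% of all genes), all mitotic and all negative. Cenpf had -2.73 (SE 0.71, adjusted p = 0.900), Cenpe -2.03 (SE 0.70, adjusted p = 0.900), Mki67 -1.16 (SE 0.33, adjusted p = 0.900) and Ect2 -1.71 (SE 0.62, adjusted p = 0.900). With the filter, a sex difference in the genotype effect on these genes was not shown. Without the 4 libraries opposite to their titled sex the mitotic median was -0.78 and the S phase median -0.01.

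Other genes of the same pathways were counted from lists. Of 75 tested other mitotic genes, 0 passed in any of the 6 comparisons, and their medians were 0.38 for KO minus WT in males and 0.37 for female minus male in WT. Of 65 tested other replication genes 0 passed, with medians of -0.07 and 0.08. The gene with the smallest p over both sexes, KO minus WT, was H2afx, a histone variant of DNA damage signalling (0.48, SE 0.12, adjusted p = 0.0668), in the first list and Usp1, a deubiquitinase of DNA repair (-0.55, SE 0.14, adjusted p = 0.0603), in the second. Of 24 G1 cyclins, kinases and pocket proteins 0 passed, and Rb1, the retinoblastoma protein that restrains E2F, had the smallest p (-0.65, SE 0.15, adjusted p = 0.0511). Its mean was 146.2 ± 33.7 CPM in WT and 92.8 ± 17.4 in KO libraries (SD, n = 6). Of 14 DNA damage checkpoint genes 0 passed, with Gadd45g at 0.55 (SE 0.23, adjusted p = 0.246).

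Ccng1, a p53 target that encodes cyclin G1, was the only pathway gene to pass, and only averaged over the sexes, among 19 tested CDK inhibitors and quiescence genes. It measured 202, 193 and 243 CPM in WT males 1 to 3, 288, 203 and 294 in WT females, 123, 139 and 142 in KO males and 141, 204 and 160.0 in KO females. Its log2 fold change was -0.65 (SE 0.13, adjusted p = 0.0289), with KO female 2 inside the WT range and the other KO libraries below it. The call was lost without the 4 libraries opposite to their titled sex (adjusted p = 0.0760), with the WT male libraries of title number 2 summed (0.0600), and on leaving out WT male 2 or 3, WT female 1 or 3, KO female 1 or 3, or KO male 3, each alone (0.0510 to 0.0927).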

How the data were processed

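Tregs of 12 libraries were profiled by RNA-seq. Libraries were made with SMART-Seq v4 and Nextera XT, per the labels' protocols, kits that do not mark strand, so reads of a gene and an antisense partner cannot be told apart. The submitters' processing notes name HISAT2 2.0.5, featureCounts 1.5.0-p2, Subread, edgeR and GRCm38. The deposited count table holds whole-number counts for 26609 genes. The deposited log2 table holds the authors' log2 CPM, which recomputation from the counts with TMM scaling and a prior count of 0.25 matched to within 4.97e-14.

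From the counts, filterByExpr kept 13692 genes with at least 99.8% of each library's counts. A quasi-likelihood model of 4 group means was fitted to all 12 libraries with edgeR 4.0.16 (R 4.3.3), with TMM scaling and robust dispersion. The 6 comparisons were tested two-sided with Benjamini-Hochberg adjustment over all genes tested, at 0.05. All KO and WT comparisons of a sex share libraries with the comparisons of the sexes. Levels are CPM on TMM-scaled library sizes, and per-library means use log2(CPM + 1). Gene spans and exon lengths come from GENCODE M21 (GRCm38). The steps were tested on simulated counts.

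The members, the pathway lists, the markers and the alternatives were chosen with earlier results of these data known. A listed marker was left out and is not reported here. In each role, the member with the highest mean CPM and the member with the smallest p over both sexes (KO minus WT) are given library by library. Alternatives were DESeq2 1.42.0, RLE size factors, no filter on low counts, limma 3.58.1 voom with quality weights, limma trend on the deposited log2 values, the title number as a replicate block, other pseudocounts, CPM without TMM, the 2 WT male libraries with title number 2 summed, and the leaving out of each library or of the 4 libraries opposite to their titled sex. No 2 libraries of a group agreed within sampling noise (chi-square per degree of freedom 9.95 to 87.0).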

Additional observations from a re-analysis of the deposited data

How the results depend on the processing

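The count of members called depended on the test, while the mitotic medians kept their direction under every alternative run, except that of female minus male in KO with limma voom (0.037). In males limma voom gave the lowest mitotic median (0.30). S phase medians near 0 did not: in males they ran from -0.05 (without the 4 libraries opposite to their titled sex) to 0.28 (without KO male 1). In males DESeq2 called 2 members (Cenpf and Ube2c), the fit with no filter on low counts called 3 (these and Cenpe), and the fit without the 4 libraries opposite to their titled sex called 2 (Cenpf and Ect2). For female minus male in WT, DESeq2 called 4, no filter 5 and limma voom 4. In females limma voom called 1, and for the interaction no filter called 2. Over the fits that each left out 1 library, members called ranged from 0 to 2 averaged over the sexes, 0 to 3 in males, 0 to 2 for female minus male in WT and 0 to 1 in KO. Of those, the fit without KO male 2 gave 2, 3 and 1 averaged, in males and for the sexes in KO, and the fit without WT female 3 gave 2 for the sexes in WT. Over all genes, KO minus WT over both sexes called 206 with edgeR, 613 with DESeq2, 627 with no filter, 597 with limma voom, 31 with the WT male libraries of title number 2 summed, 14 without the 4 libraries and 9 with the replicate block. In males the counts were 10, 398, 443, 0, 0, 135 and 0. With a pseudocount of 5 the per-library mitotic means spanned 0.868 in place of 1.28. That pseudocount changed the S phase rank of 5 libraries, and CPM without TMM changed the mitotic rank of 2.

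Averaged over the sexes, the sign of small values turned for Ect2 (-0.077) and Tpx2 (-0.094) with limma voom, and for Mcm5 (-0.0058) without the 4 libraries. Among the leave-outs it turned for Bub1 (-0.023 without WT female 3, at most 0.654 without WT male 2), Mcm5 (-0.048 without KO male 2, at most 0.362 without KO male 1) and Ect2 (-0.19 without KO male 3, at most 0.403 without KO male 1). The cause was not tested.

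With the title number as a replicate block 0 members were called in any comparison, the mitotic median in males was 0.58, and Ccng1 lost its call (-0.66, adjusted p = 0.0906). Libraries with the same number did not deviate together (r from -0.39 to 0.13 over 18 pairs, median -0.05). Of 12 libraries, 1 correlated best with its own number. The labels do not say what the number stands for, and some titles conflict with the sex markers. This check therefore cannot decide whether such libraries share a litter, day or batch. At 10.2 to 16.7 M counts, members with few counts, such as Ube2c, Hmmr and Cenpf, carry the most counting error.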
